A study of Rattus norvegicus with 16 samples.

Results

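The circRNAs described here are 4 m6A-circRNAs whose host genes, Mnd1, Rtf1, Shq1 and Mga, encode proteins known to work in the nucleus. They are 4 of the 14145 circRNA probes of the array. Probe ASCRPR008623 measured rno_circRNA_008556, from Mnd1, and ASCRPR003572 measured rno_circRNA_010013, from Rtf1. Probe ASCRPR001613 measured rno_circRNA_011501, from Shq1, and ASCRPR010479 measured mmu_circRNA_017077, from Mga, under a name built on a mouse circRNA. All 4 come from the study's list of the 10 circRNAs whose m6A quantity rose most in morphine tolerance, so they were chosen by the IP intensities of the same rats. Every difference between the groups given for them is therefore a description without a test. In the deposited values they stood at places 7 to 10 among the circRNAs that met the study's thresholds, which were an unadjusted P under 0.05 together with a 1.5-fold change. Their fold changes there were 2.02, 2.01, 1.92 and 1.89. The probes just outside were ASCRPR013535 at 1.87 and ASCRPR002440 at 1.85. The host genes are those the study lists, and each was paired with its probe through the fold change and P of the deposited values.

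Lumbar spinal cord was taken from 8 adult male SD rats, 4 in the morphine tolerance (MT) group and 4 in the normal saline (NS) group. The MT rats received 10 μg of morphine in 10 μl through an intrathecal tube every morning and evening for 7 days. The NS rats received 10 μl of saline at the same times, so that both groups shared the injected volume and the schedule. Whether the saline also went through an intrathecal tube is not given in the sources used here. The study collected the cord on the 8th morning, 1 h after an injection of morphine or saline. The last dose and the 7 days of dosing therefore cannot be told apart. From the total RNA, an antibody against m6A pulled down a bound fraction (IP), leaving the rest in the supernatant (SUP), and RNase R then removed linear RNA from both. On the 1 array of each rat, IP always carried the dye Cy5 and SUP the dye Cy3, so a dye effect of a probe and its IP to SUP ratio cannot be told apart. The labels call the rats of a group biological replicates, and the spread given is that between these rats.

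CircRNAs are closed RNA loops that form when the splicing machinery joins the end of an exon back to the start of the same or an earlier exon. N6-methyladenosine (m6A) is set on RNA by methyltransferases called writers, removed by demethylases called erasers and bound by reader proteins that can alter the splicing, export, translation or decay of the RNA. On circRNAs, m6A has been linked to their formation, their export from the nucleus and their cleavage. The spinal cord is the first relay of pain signals and a site where opioids act, and repeated intrathecal morphine loses its effect there.

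The host genes have different nuclear roles. Rtf1 is a subunit of the Paf1 complex, which travels with RNA polymerase II and promotes transcript elongation and histone modification. Mga is a large DNA-binding repressor that pairs with Max and belongs to a variant Polycomb complex. Shq1 is a chaperone of dyskerin in the assembly of the H/ACA ribonucleoproteins, which guide pseudouridine formation and are part of telomerase. Mnd1 acts with Hop2 in meiotic recombination, where the pair helps strand exchange between homologous chromosomes. The arrays measured circRNAs only, so neither the proteins nor the linear mRNAs of these genes were measured.

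In the RefSeq annotation of the rat assembly GRCr8, Rtf1 and Mga are near neighbours on chromosome 3, with 5 annotated genes between them (Itpka, Ltk, Rpap1, Tyro3 and Gabarap-ps2). Mnd1 is on chromosome 2 and Shq1 on chromosome 4. All 4 hosts are protein-coding genes. The promoter windows of the neighbouring pair are shown as context for where these host genes are transcribed, and a link between the pair was not tested. Each window holds 300 bases of GRCr8 around the annotated start, read 5′ to 3′ on the plus strand, with GC boxes (GGGCGG on either strand) in capitals. The Rtf1 window is chr3:127112921-127113220. The Mga window is chr3:127305125-127305424, at the first of 4 listed start sites.
Rtf1: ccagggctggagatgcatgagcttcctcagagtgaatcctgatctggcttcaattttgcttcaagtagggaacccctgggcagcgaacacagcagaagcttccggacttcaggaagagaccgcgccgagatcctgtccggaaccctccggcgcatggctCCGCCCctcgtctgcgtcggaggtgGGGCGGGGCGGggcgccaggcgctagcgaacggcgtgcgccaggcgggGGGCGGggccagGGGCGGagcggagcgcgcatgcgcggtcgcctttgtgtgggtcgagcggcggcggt
Mga: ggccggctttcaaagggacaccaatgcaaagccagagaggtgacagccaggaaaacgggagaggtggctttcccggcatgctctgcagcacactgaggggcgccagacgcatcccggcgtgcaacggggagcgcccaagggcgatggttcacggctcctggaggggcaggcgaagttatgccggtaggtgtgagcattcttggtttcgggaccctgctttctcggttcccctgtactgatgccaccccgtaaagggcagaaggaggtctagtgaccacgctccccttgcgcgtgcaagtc
The Rtf1 window held 5 GC boxes, of which 2 overlap by 1 base, and 33 CpG dinucleotides. Its GC content was 68.7%. The Mga window held 0 GC boxes, 1 CCAAT box (CCAAT on either strand) and 19 CpG dinucleotides at a GC content of 62.0%. The windows of Mnd1 and Shq1 held 1 GC box each, with 10 and 24 CpG dinucleotides. None of the 4 windows held an E-box (CACGTG), the letters that Max partners are known to bind, or a TATA box (TATAAA on either strand). Of the 33469 RefSeq promoter windows of the same length, 33.1% held a GC box, 37.5% a CCAAT box, 6.42% the E-box and 14.2% a TATA box, with a median of 7 CpG dinucleotides. These are matches of letters in linear gene promoters, and the arrays measured no binding there.

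The array data as a whole set the scale for these values. The median processed intensity of the circRNA probes was between 295 and 559 units per array and channel, over a median local background of 15 to 20 units. Between 83.7% and 96.3% of the probes were well above background, the lowest share being IP of MT replicate 4. By the position code of each array, the 4 MT arrays lay in row 1 and the 4 NS arrays in row 2, so position and group cannot be told apart. The code does not name the slide. Intensities are given as log2 of the processed signal after each array and channel was set to its spike-in probes, and 1 log2 unit is a 2-fold difference. IP on this scale is the m6A quantity, and the sum of IP and SUP is the expression. IP as a percentage of that sum is the m6A level. All 4 circRNAs passed the detection filter, set at 4 or more of the 8 arrays well above background in each channel, as did 12893 circRNAs in IP and 12669 in both channels. Each circRNA had 1 spot per array, and none of the spots of these 4 was saturated or marked as an outlier. In bulk tissue, fewer cells of a type and less RNA per cell cannot be told apart.

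The m6A quantity of all 4 circRNAs was higher in the MT group, with mean fold changes from 2.12 to 2.27, whereas the median circRNA differed by 0.01 log2, or by -0.15 in the deposited values. The MT replicates 1 to 4 had a log2 IP of 6.71, 6.77, 7.11 and 6.49 for the circRNA of Mnd1, whereas the NS replicates 1 to 4 had 6.003, 5.15, 5.60 and 5.61. Every MT rat was above every NS rat. The means were 6.77 ± 0.26 (SD, n = 4) in MT and 5.59 ± 0.35 (SD, n = 4) in NS, a difference of 1.18 ± 0.22 (SE).

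Log2 IP of the Rtf1 circRNA was 6.88, 7.27, 6.21 and 7.13 in the MT rats and 6.19, 5.999, 5.77 and 4.83 in the NS rats. The groups did not overlap, but MT replicate 3 and NS replicate 1 were only 6.21 against 6.19, and the groups overlapped in the deposited values, with the 75th percentile and with loess and Aquantile. The means were 6.87 ± 0.47 and 5.70 ± 0.60 (SD, n = 4 each), a difference of 1.18 ± 0.38 (SE).

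The circRNA of Shq1 had log2 IP of 6.56, 6.70, 6.61 and 6.09 in the MT rats and 5.96, 5.18, 4.77 and 5.64 in the NS rats. Again the lowest MT rat was above the highest NS rat. The means were 6.49 ± 0.28 and 5.38 ± 0.52 (SD, n = 4 each), which differed by 1.11 ± 0.29 (SE).

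Log2 IP of the Mga circRNA was 7.26, 7.76, 6.93 and 5.90 in the MT rats and 6.22, 6.03, 5.53 and 5.73 in the NS rats. Here the groups overlapped, because MT replicate 4 lay below NS replicates 1 and 2, although they were separate with quantile and with loess and Aquantile. The means were 6.96 ± 0.78 and 5.87 ± 0.31 (SD, n = 4 each), a difference of 1.09 ± 0.42 (SE). Without MT replicate 4 the groups separated and the difference was 1.44, whereas without MT replicate 2 it was 0.82.

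**Figure D1:**
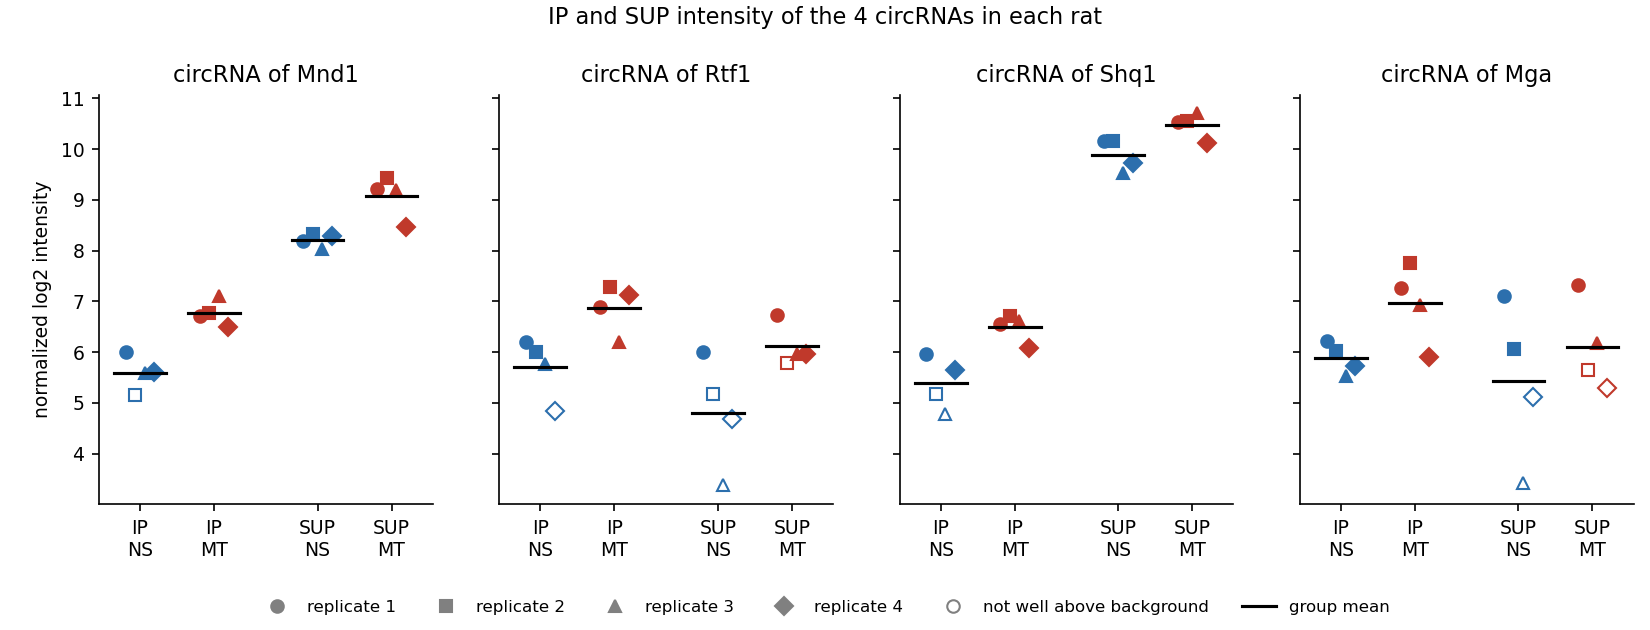
Normalized log2 intensity (vertical axis) of IP and SUP for each circRNA in each rat, NS in blue and MT in red, with a marker shape per replicate, open markers for spots not well above background and a black line for the group mean. IP is separate between the groups for Mnd1, Rtf1 and Shq1, and MT replicate 4 of Mga (5.90) sits among the NS rats.

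With limma on the scaled values, all 4 circRNAs met the same thresholds of fold change and unadjusted P in IP, as 1.67% of the 12893 circRNAs tested did in this direction. Groups that did not overlap, with MT higher, were seen for 2.74% of the circRNAs and for 3 of these 4. Since IP of these rats chose the 4, nothing is read from either count. The share also moved with single rats. With all rats 215 circRNAs passed, with 1534 when MT replicate 4 was left out, 350 for NS replicate 1, 103 for MT replicate 1, 113 for MT replicate 2, 118 for NS replicate 3 and 130 for NS replicate 4. The size of the difference was smaller with normexp. That setting takes the median spot signal and adds 50 units to every spot, so ratios of dim spots shrink by construction. This holds for every value with normexp below, and the part of the background correction itself was not tested. With normexp on the median spot signal the groups overlapped for all 4 circRNAs, and the differences were 0.25 for Mnd1, 0.29 for Rtf1, 0.27 for Shq1 and 0.30 for Mga, against a median circRNA of 0.08.

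**Figure D2:**
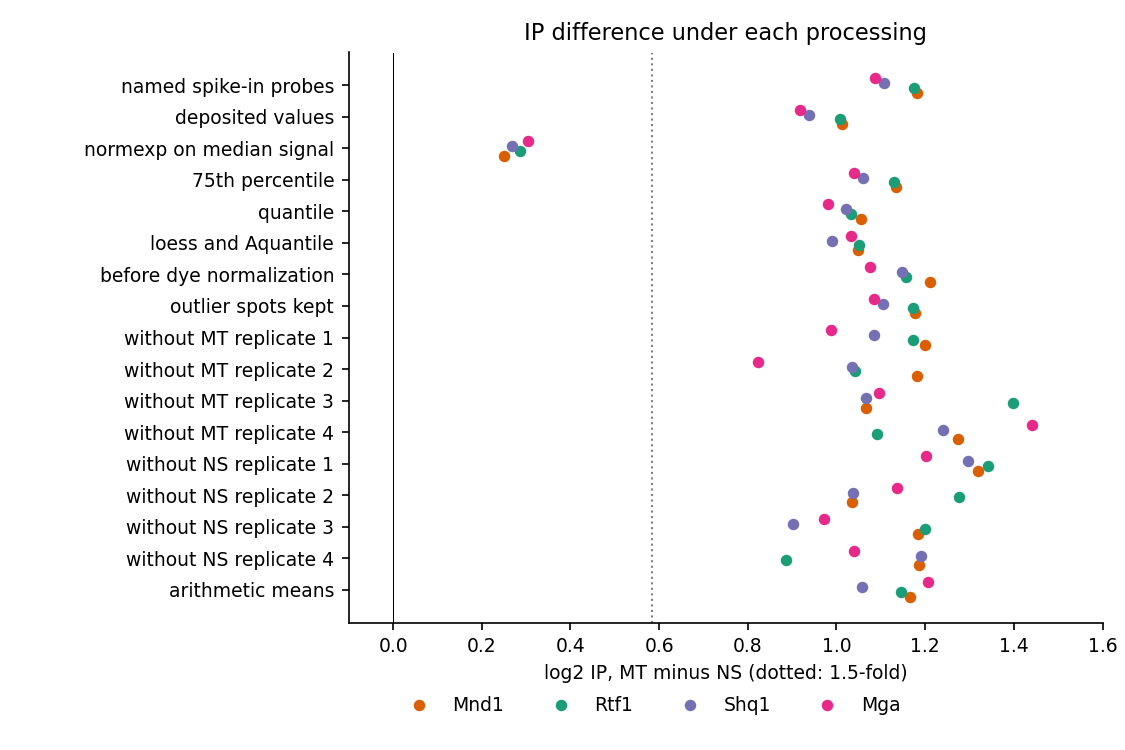
Difference in log2 IP between the group means, MT minus NS (horizontal axis), for each circRNA (color) under each processing (rows). The dotted line marks a fold change of 1.5, and only normexp on the median signal, from 0.25 to 0.30, falls below it.

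The IP spots of these circRNAs were dim. On the arrays of the NS group the spot medians of the 4 probes lay between 22 and 27 units over a local background of 13 to 18 units. On those of the MT group they lay between 26 and 44 units over 15 to 19 units. The fold changes above are thus ratios of a few intensity units. For Mnd1, the spot median less the local background was between 10 and 18 units in the MT rats and between 8 and 11 in the NS rats, for Rtf1 between 9 and 21 against 6 to 10, for Shq1 between 11 and 15.5 against 7 to 9, and for Mga between 10 and 27 against 8 to 13. In these units only the Shq1 spot was separate between the groups. In the scanner software's background-subtracted signal, also before any scaling, Mnd1 (10.3 to 20.8 units in MT, 4.52 to 7.78 in NS), Rtf1 (11.1 to 18.6 against 4.26 to 8.77) and Shq1 (8.02 to 14.8 against 3.97 to 7.60) were separate. Mga was not, as MT replicate 4 at 6.64 units lay below all NS rats.

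In IP all 4 probes were well above background in every MT rat. In the NS rats this held for 3 of 4 with Mnd1, for 3 of 4 with Rtf1, for 2 of 4 with Shq1 and for 4 of 4 with Mga. None of the 4 would pass a filter of both channels well above background on all 8 arrays, which 11023 circRNAs passed. Of the 12669 circRNAs that passed in both channels, 8.38% had dimmer IP spots than Mnd1, 9.69% than Rtf1, 5.77% than Shq1 and 11.7% than Mga; spot brightness depends on the probe and is no measure of RNA amount between probes. In the dimmest 10% of the 12893 circRNAs that passed in IP, a larger base, which holds Mnd1 and Shq1, 4.42% passed the criterion with MT higher and the median spread within a group was 0.52 log2 (SD). In the next 10%, which holds Rtf1 and Mga, these were 4.19% and 0.39. The spread of Rtf1 within the groups was 0.54 and that of Mga 0.59, above the median of their brightness class, whereas Mnd1 at 0.31 and Shq1 at 0.42 were below theirs. The study's choice by P in IP favours a small spread, so nothing is read from this comparison.

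**Figure D3:**
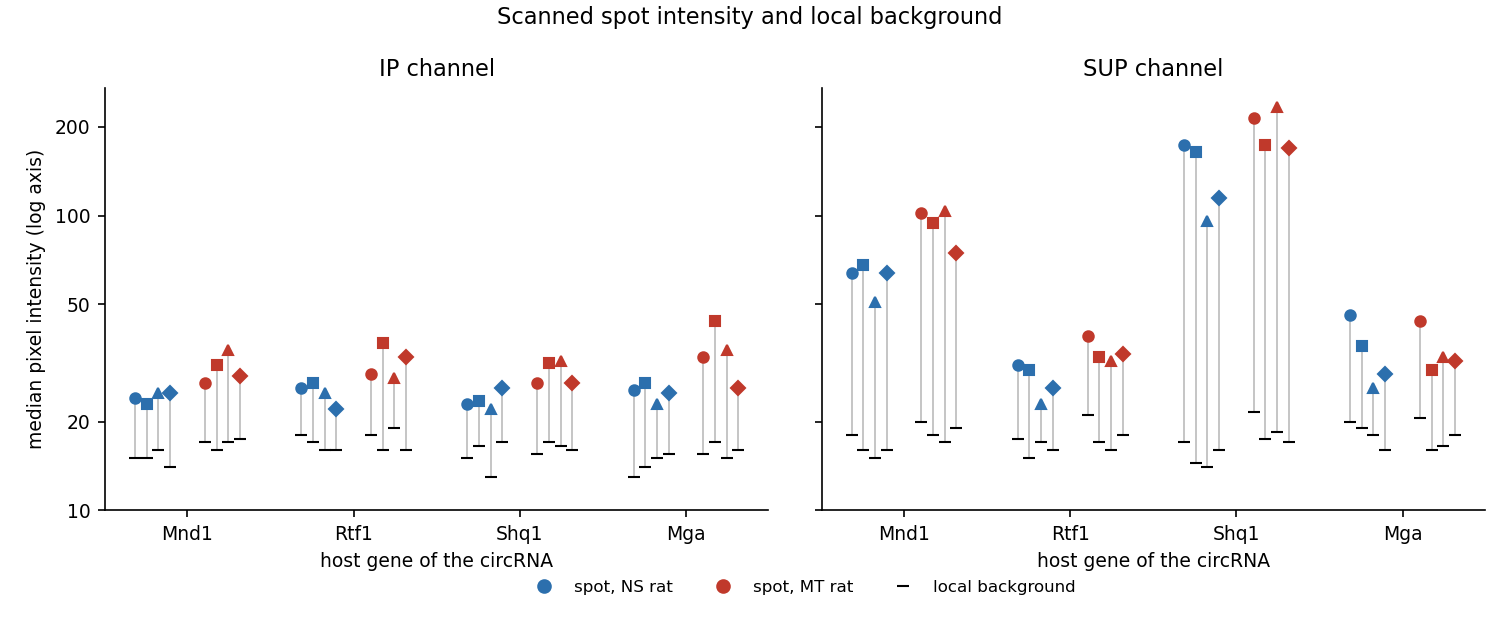
Median pixel intensity of each spot (markers, shape by replicate) and of its local background (black dashes) in intensity units on a log axis, for IP and SUP, NS in blue and MT in red. IP spots range from 22 to 44 units, and in SUP the spots of Mnd1 and Shq1 reach 104 and 234 units while those of Rtf1 and Mga stay at 46 or below.

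SUP, the RNA that the antibody did not bind, was also higher on average in the MT group for all 4 circRNAs, in a channel where the median circRNA was 0.26 log2 higher on the spike-in scale. That shift was 0.11 in the deposited values and 0.12 with normexp, and -0.04 with the 75th percentile, -0.10 with quantile and -0.09 with loess and Aquantile, which set the arrays to a common level by construction. SUP shares the rat, the array and the spot with IP. Log2 SUP of the Mnd1 circRNA was 9.21, 9.42, 9.19 and 8.46 in the MT rats, in the order of their numbers, and 8.18, 8.32, 8.03 and 8.29 in the NS rats. The groups did not overlap, and the means of 9.07 ± 0.42 and 8.21 ± 0.13 (SD, n = 4 each) differed by 0.86 ± 0.22 (SE). The difference was 0.40 with normexp, 0.56 with the 75th percentile, 0.47 with quantile and 0.44 with loess and Aquantile. Mnd1 was the 1 circRNA of the 4 without overlap in SUP, a pattern that 10.9% of all circRNAs showed with MT higher. The Mnd1 groups overlapped in SUP in the deposited values and with the 75th percentile, quantile and loess and Aquantile, and those of Shq1 were separate in the deposited values.

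The circRNA of Shq1 had log2 SUP of 10.54, 10.55, 10.71 and 10.13 in the MT rats and 10.15, 10.16, 9.52 and 9.72 in the NS rats. MT replicate 4 lay just below NS replicates 1 and 2. The means were 10.48 ± 0.25 and 9.89 ± 0.32 (SD, n = 4 each), a difference of 0.59 ± 0.20 (SE). It was 0.29 with the 75th percentile, 0.25 with quantile and 0.17 with loess and Aquantile.

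For the circRNA of Rtf1, log2 SUP was 6.74, 5.78, 5.97 and 5.96 in the MT rats and 5.99, 5.17, 3.37 and 4.69 in the NS rats. The difference was 1.31 ± 0.59 (SE), but NS replicate 1 lay above 3 of the 4 MT rats. With normexp it was 0.13, close to the median circRNA at 0.12. Only 3 MT spots and 1 NS spot were well above background.

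For the circRNA of Mga, log2 SUP was 7.33, 5.64, 6.17 and 5.29 in the MT rats and 7.10, 6.06, 3.41 and 5.11 in the NS rats. These groups overlapped widely, and the difference of 0.69 was smaller than its SE of 0.90. It was 0.027 with normexp, 0.38 with the 75th percentile, 0.17 with quantile and 0.23 with loess and Aquantile, and 1.25 when NS replicate 1 was left out. Of these spots, 2 in each group were well above background. When NS replicate 3 was left out, the difference of Mga was 0.016 and that of Rtf1 was 0.83. In that rat the scanner software put the error of the processed signal at 93.1% for Rtf1 and 91.7% for Mga, and its linear dye factor for SUP was 11.05, against 6.31 to 9.60 on the other arrays. Before dye normalization the differences in SUP were 1.35 for Rtf1 and 0.71 for Mga. Values before and after it were both scaled to the spike-in probes, which takes out a factor shared by all spots of a channel. An effect of the linear dye factor was therefore not tested.

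The m6A level, the share of the signal that the antibody bound, overlapped between the groups for all 4 circRNAs on the spike-in scale, in the deposited values and before dye normalization. The groups were separate for Shq1 with the 75th percentile, with quantile, with loess and Aquantile and with outlier spots kept, and for Mga with normexp. Among all circRNAs, 0.516% had levels without overlap and higher in MT, and 8.82% had levels without overlap and lower in MT. The difference of the median circRNA, MT minus NS, was -3.14 percentage points. It was -3.50 in the deposited values, -1.61 with normexp and -2.42 before dye normalization, and 0.35 with the 75th percentile, 1.11 with quantile and 1.36 with loess and Aquantile, which bring the channels or arrays to a common level by construction.

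The m6A level of Mnd1 was 15.05%, 13.7%, 19.1% and 20.3% in the MT rats and 18.1%, 9.99%, 15.6% and 13.5% in the NS rats. The means of 17.04% ± 3.18 and 14.3% ± 3.42 (SD, n = 4 each) differed by 2.76 ± 2.33 percentage points (SE). This became -2.07 with normexp and lay between 7.03 and 7.29 with the 75th percentile, quantile or loess and Aquantile. It was 1.33 when NS replicate 2 was left out, 1.67 for MT replicate 4 and 4.03 for NS replicate 1. For Shq1 the level was 5.95%, 6.49%, 5.53% and 5.74% in the MT rats and 5.17%, 3.07%, 3.58% and 5.56% in the NS rats. Only NS replicate 4 reached into the MT range, and the means of 5.93% ± 0.41 and 4.35% ± 1.21 (SD, n = 4 each) differed by 1.58 ± 0.64 percentage points (SE). With normexp this difference was -1.83, and with the 3 other scalings just named it lay between 3.61 and 3.87.

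The levels of the other pair varied more between rats. For Rtf1 the level was 52.6%, 73.8%, 54.1% and 69.2% in the MT rats and 53.4%, 63.9%, 84.0% and 52.5% in the NS rats, with means of 62.4% ± 10.6 and 63.5% ± 14.6 (SD, n = 4 each). The difference of -1.06 percentage points was far below its SE of 9.05 and changed sign with normexp (2.68), the 75th percentile (2.65), quantile (4.12) and loess and Aquantile (2.99), and when MT replicate 1 (2.21), MT replicate 3 (1.69) or NS replicate 3 (5.79) was left out. For Mga the level was 48.8%, 81.2%, 62.9% and 60.4% in the MT rats and 35.1%, 49.3%, 81.2% and 60.6% in the NS rats, with means of 63.3% ± 13.4 and 56.6% ± 19.5 (SD, n = 4 each). The difference of 6.76 ± 11.8 percentage points (SE) became -0.38 when NS replicate 1 was left out and 14.99 when NS replicate 3 was.

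The criterion applied to log2(IP/SUP) called none of the 4 in either direction, while 0.118% of all circRNAs passed it with MT higher and 8.65% with MT lower. These shares correspond to 15 higher and 1096 lower circRNAs, and the split was 12 and 1683 in the deposited values, 0 and 279 with normexp and 10 and 732 before dye normalization. With loess and Aquantile, which centres the ratio by construction, it was 345 higher and 290 lower. Relative to the median circRNA, the ratio difference of the 4 was 0.55 for Mnd1, 0.10 for Rtf1, 0.75 for Shq1 and 0.63 for Mga. With normexp the same values were -0.041, 0.26, -0.070 and 0.38, so that Mnd1 and Shq1 changed sign. The criterion applied to SUP called 3 of the 4 with MT higher, beside 15.5% of all circRNAs. In the sum it also called 3 of the 4, beside 10.8%. SUP shares the rats, arrays and spots with the IP that chose the 4, and the sum contains that IP, so nothing is read from either count.

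**Figure D4:**
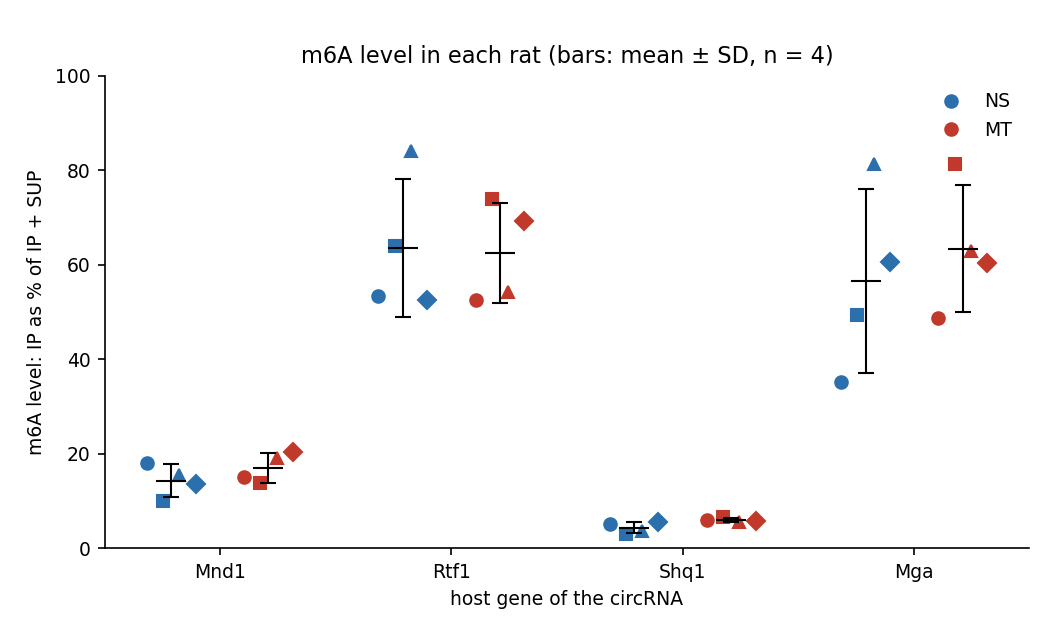
The m6A level, IP as a percentage of IP and SUP together (vertical axis), of each circRNA in each rat, NS in blue and MT in red, marker shape by replicate, with the mean and SD of 4 rats as black bars. Levels are between 3.07% and 20.3% for Mnd1 and Shq1 and between 35.1% and 84.0% for Rtf1 and Mga, and on this scale, that of the spike-in probes, the groups overlap for each circRNA.

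Expression, taken as the sum of IP and SUP, was higher on average in the MT group for all 4 circRNAs, against a median circRNA of 0.16 log2 on the spike-in scale and of -0.05 to -0.01 in the deposited values and with the 75th percentile, quantile or loess and Aquantile. Log2 expression of Mnd1 was 9.44, 9.64, 9.50 and 8.79 in the MT rats and 8.47, 8.47, 8.28 and 8.50 in the NS rats, a difference of 0.91 ± 0.20 (SE). It was the 1 circRNA of the 4 without overlap on this scale, as were 8.89% of all circRNAs with MT higher. Under other processing its groups overlapped with loess and Aquantile, while Shq1 was separate in the deposited values and with quantile, and Rtf1 with quantile and with loess and Aquantile. The sum of Mnd1 followed SUP, which held most of its signal. For Rtf1 the MT rats ranged from 7.09 to 7.81 and the NS rats from 5.76 to 7.10, so that only MT replicate 3 and NS replicate 1 crossed, and the difference was 1.19 ± 0.34 (SE). For Shq1 the MT rats ranged from 10.21 to 10.79 and the NS rats from 9.57 to 10.23, a difference of 0.62 ± 0.20 (SE). For Mga the MT rats ranged from 6.63 to 8.29 and the NS rats from 5.83 to 7.73, a difference of 0.88 ± 0.55 (SE). The Mga difference was 0.57 when NS replicate 3 was left out. With normexp the differences in expression were 0.35 for Mnd1, 0.20 for Rtf1, 0.41 for Shq1 and 0.15 for Mga. With quantile they were 0.61 for Mnd1 and 0.30 for Shq1, and with loess and Aquantile 0.58 and 0.23.

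How IP stood against SUP over both groups together placed the 4 on both sides of the median circRNA, 2 below it and 2 above. In each rat, log2(IP/SUP) was taken relative to the median circRNA of that array and averaged over the 8 rats. These averages are given as descriptions with no test, since the same IP values chose the 4 and circRNAs with dim IP spots met the thresholds more often, as given above.

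For Mnd1 and Shq1 the ratio lay below the median circRNA of the array. The centred ratio of Mnd1 was between -2.63 and -1.24 log2 in the 8 rats, with an average of -1.96 ± 0.14 (SE), and below the median in 8 of 8 rats. That of Shq1 was between -4.53 and -3.18, with an average of -3.75 ± 0.11 (SE), also in 8 of 8 rats. Of the circRNAs tested, 1.44% had a lower average than Shq1, and 10.8% a lower average than Mnd1. The SUP spots of both were well above background in 8 of 8 rats, while in IP 1 NS spot of Mnd1 and 2 NS spots of Shq1 were not. With normexp the averages were -0.72 and -1.60.

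The ratios of Rtf1 and Mga lay above the median circRNA, over a SUP signal that was well above background in only 4 of 8 rats for each. Their size is therefore loosely known. The average of Rtf1 was 1.32 ± 0.25 (SE), between 0.33 and 2.62 and above the median in 8 of 8 rats. That of Mga was 1.15 ± 0.29 (SE), between -0.35 and 2.53 and above the median in 7 of 8 rats, the exception being NS replicate 1. With normexp the averages were 0.070 for Rtf1 and 0.078 for Mga. The SUP spots of this pair were among the dimmest tested, with 0.111% of the circRNAs dimmer than Rtf1 and 0.813% dimmer than Mga.

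**Figure D5:**
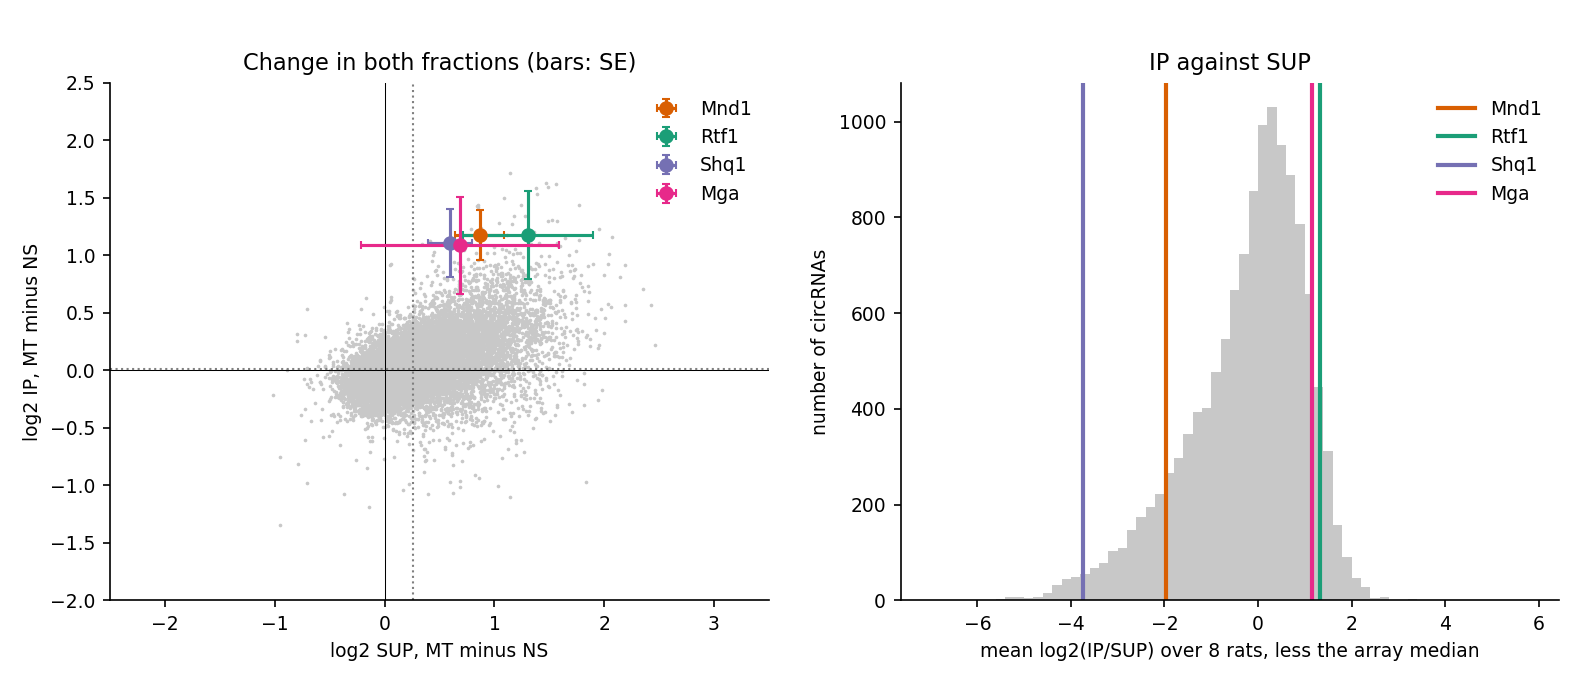
Left, the difference MT minus NS in log2 SUP (horizontal axis) and log2 IP (vertical axis) of all circRNAs (grey) and of the 4 (color, bars SE), with dotted lines at the medians of 0.26 and 0.01. Right, the number of circRNAs by their average log2(IP/SUP) less the array median, with Shq1 at -3.75 and Mnd1 at -1.96 on the low side and Mga at 1.15 and Rtf1 at 1.32 on the high side.

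Within the groups, the correlations between the 4 circRNAs differed in sign in IP and were positive in SUP. After the group means were taken away, IP of Mnd1 and Shq1 had a Pearson correlation of 0.63 over the 8 rats and IP of Shq1 and Mga one of 0.64, whereas IP of Rtf1 had correlations of -0.24, -0.10 and 0.20 with Mnd1, Shq1 and Mga. The remaining pair, Mnd1 and Mga, had 0.31. In SUP all 6 correlations within the groups were positive, at 0.19 for Mnd1 and Rtf1, 0.66 for Mnd1 and Shq1, 0.36 for Mnd1 and Mga, 0.69 for Rtf1 and Shq1, 0.97 for Rtf1 and Mga and 0.80 for Shq1 and Mga. The values of Rtf1 and Mga include spots not well above background in 4 of 8 rats each, and both were lowest in NS replicate 3, where the error of the processed signal was over 90%. These correlations are given as descriptions over 8 rats that share arrays and scaling.

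The probes whose log2 IP over the 8 rats was most like each of the 4, among 12844 compared, are given by their IDs, since their host genes were not analysed here. These correlations hold the group difference by which the 4 were chosen, so the correlation within the groups is given after each. For Mnd1 they were ASCRPR003082 (r = 0.973, within groups 0.854) and ASCRPR011025 (0.956, within groups 0.708). For Rtf1 they were ASCRPR002584 (0.979 and 0.972) and ASCRPR012031 (0.970 and 0.946). For Shq1 they were ASCRPR011399 (0.982 and 0.948) and ASCRPR003307 (0.960 and 0.889), and for Mga ASCRPR000911 (0.990 and 0.979) and ASCRPR008469 (0.982 and 0.967). None of the 4 was among the closest probes of another. Lists of the Paf1 complex, the H/ACA ribonucleoproteins, the Max network, meiotic recombination and the cell types of the spinal cord were not analysed here, since they need host gene names for the remaining probes.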

How the data were processed

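The arrays measured circRNAs in the IP and SUP fractions of 8 rats, with the number of arrays limiting the precision. The authors deposited scanner output (Agilent Feature Extraction 11.0.1.1, per the submitters' notes) with a processed intensity per spot, after background subtraction and dye normalization, and a table of log2 values that the authors normalized to spike-in RNA. The array design names the older assembly rn4, and no coordinates of the arrays were used.

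The log2 processed intensity was reduced by the mean log2 of the 102 named spike-in probes of its array and channel, plus 1 constant, and spots marked as outliers were left out. The authors' own choice of spike-ins is unknown, so the deposited log2 values were an alternative. The tests used limma 3.58.1 in R 4.3.3 on circRNAs well above background on at least 4 of 8 arrays, and were tested on simulated data. Tables and figures were made with Python 3.11.15, pandas 2.3.3, numpy 2.4.6 and matplotlib 3.10.9. The circRNAs, the lists and the rule for naming genes were chosen with earlier results of these data known. Genes named are the 4 hosts, the 2 probes most like each in IP and the probes just outside the study's list. A limma test of the IP to SUP average had been planned as independent of the choice, but dim IP is tied to that choice, so its averages are given without P values. The alternatives were the background correction (normexp, offset 50), the 75th percentile, quantile or loess and Aquantile normalization, the signal before dye normalization, outlier spots kept, arithmetic means, no centring, no filter or all 8 arrays as filter, Student's test, a replicate block and leaving out each rat. Promoter windows were read from RefSeq on GRCr8, in which all 4 hosts were found.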

Additional observations from a re-analysis of the deposited data

Results flagged for a closer look

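The expression of the circRNA of Mnd1 in NS replicate 3, a log2 sum of 8.28, stood apart from the other 3 NS rats, the nearest of which was at 8.47. The gap was 0.882 of the whole range of the group, above the 95% critical value of Dixon's test for 4 samples. SUP of Mnd1 was also lowest in this rat, at 8.03, and IP was not, at 5.60. Of 32 groups of 4 rats looked at, 1 stood out in this way, and chance gives about 1 in 20.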

How the results depend on the processing

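The IP difference of each of the 4 circRNAs stayed positive under every alternative, but IP of these rats chose the 4, so nothing is read from this. For Mnd1, Rtf1 and Shq1, whose groups did not overlap, leaving out a rat could not turn the sign. With normexp, which adds 50 units to every spot by construction, the IP difference was 0.25 (Mnd1), 0.29 (Rtf1), 0.27 (Shq1) and 0.30 (Mga). SUP was then 0.40 (Mnd1), 0.13 (Rtf1) and 0.027 (Mga), the sum 0.35, 0.20 and 0.15, and the m6A level -2.07 (Mnd1), 2.68 (Rtf1) and -1.83 (Shq1) percentage points. The IP to SUP average was 0.070 for Rtf1 and 0.078 for Mga, and that of Mga was 0.66 before dye normalization and 0.65 with no centring. With the 75th percentile, SUP of Shq1 was 0.29 and the levels 7.03 (Mnd1), 2.65 (Rtf1) and 3.85 (Shq1) points. With quantile normalization, SUP was 0.47 (Mnd1), 0.25 (Shq1) and 0.17 (Mga), the sum of Mnd1 and Shq1 0.61 and 0.30, and the levels 7.15 (Mnd1), 4.12 (Rtf1) and 3.61 (Shq1). With loess and Aquantile, SUP was 0.44 (Mnd1), 0.17 (Shq1) and 0.23 (Mga), the sum of Mnd1 and Shq1 0.58 and 0.23, and the levels 7.29 (Mnd1), 2.99 (Rtf1) and 3.87 (Shq1). Leaving out each rat gave levels from -4.86 to 5.79 points for Rtf1 and from -0.38 to 14.99 for Mga. Except for the construction of normexp, the cause of these moves was not tested.

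Over all circRNAs, 215 passed the limma criterion with MT higher in IP, 1966 in SUP and 1370 in the sum, and for IP/SUP 15 were higher and 1096 lower. In that order the counts were 29, 743, 503, 0 and 279 with normexp. SUP, the sum and both ratio counts were 997, 610, 184 and 377 with the 75th percentile, 919, 600, 291 and 383 with quantile and 861, 562, 345 and 290 with loess and Aquantile. The deposited values gave 111 in IP and 1683 lower ratios. Student's test gave 139 in IP, 1244 in SUP, 863 in the sum and 715 lower ratios, and no filter on dim probes gave 27 higher ratios. Leaving out each rat gave 103 to 1534 in IP, 948 to 3466 in SUP, 602 to 2396 in the sum, and 10 to 43 higher and 588 to 1683 lower ratios.

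Same-numbered rats of the groups share a column in the position codes, and their deviations correlated at 0.453, -0.0117, -0.0159 and 0.428 for numbers 1 to 4, so the numbers were not taken as pairs. In each of the 4 columns, IP was higher in the MT rat for all 4 circRNAs, by 0.71 to 1.62 (Mnd1), 0.44 to 2.30 (Rtf1), 0.45 to 1.84 (Shq1) and 0.17 to 1.73 (Mga). For Mnd1, Rtf1 and Shq1, whose groups did not overlap, this direction was fixed in advance. Since IP of these rats chose the 4, nothing is read from it. With the replicate block the mean differences are the same by the balanced design, and the counts were 323 in IP, 3069 in SUP and 2143 in the sum. Of the recomputed values, 344 kept their direction and call or moved by less than the spread between rats. Another 73 moved more, 10 changed direction and 4 became weaker. Some of each are given above, and some of the 344 are equal by construction, as with the replicate block. The spread between rats is wide enough for the fall of Mga in SUP to 0.027 to count among the 344. Dim IP spots, a few units over background in the NS rats, limit how closely any of these fold changes is known.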
